A study of Mus musculus with 4 samples.

Results

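TRGV1 cells are liver T cells whose γ chain was assembled with the V segment TRGV1, also written Vγ1. They were chosen by measured receptor contigs: a cell needed a productive, high-confidence γ contig with TRGV1 and no other γ V segment in the receptor library, and at least 300 detected genes with at most 10% mitochondrial counts in the gene expression library of the same sort. The use of TRGV1 is therefore no result. The rule gave 28 tdTomato+ and 660 tdTomato- cells, 688 in all, among 117 and 2179 cells with 1 γ V segment and among 17509 and 18173 cells passing the cell filter. TRGV1 cells made up 23.9% of the γ contig cells of the tdTomato+ library (95% interval, 16.5 to 32.7) and 30.3% of those of the tdTomato- library (28.4 to 32.3). A further 1 tdTomato+ and 8 tdTomato- cells had TRGV1 beside another γ V segment and were left out. Of the 660 tdTomato- members, 197 held 1 same γ sequence (junction A, below), which was seen in 0 of the 28 tdTomato+ members.

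The mice were 2 months old and carried the *Stab2-CrexERT2* allele together with *R26-LSL-tdT*, and tamoxifen had been given when they were embryos of E9.5. Their CD45+ liver cells were sorted into tdTomato+ and tdTomato- cells, so both groups share the alleles and the treatment. The sample labels give the genotype only as S2 and call the tdTomato- samples control. Cre is driven from *Stab2*, a scavenger receptor gene of sinusoidal endothelium, so tdTomato marks cells in which *Stab2* was active at induction, and their descendants. Each sort gave 1 gene expression library and 1 receptor library, the labels put the tdTomato+ samples in batch 1 and the tdTomato- samples in batch 2, and animals cannot be traced from the barcodes. Sort, batch and animal thus cannot be told apart, no test between conditions was possible, and every interval below covers counting error only. Each library held γ contig cells with *Xist* alone and others with Y-linked counts alone, and so cells of both sexes. The sort gates could also set any share of cells given here.

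γδ T cells rearrange a γ and a δ chain gene from V, D and J segments, and the joint between V and J forms the third complementarity-determining region (CDR3). Trimming of the segment ends and addition of bases by terminal transferase make this joint variable, while joints with few added bases recur between cells. Mouse Vγ1 chains lie in a cassette of their own with TRGJ4 and TRGC4. Vγ1 cells are frequent in liver and spleen and are known as producers of IFN-γ, and those paired with δ chains of the Vδ6 family include cells that express PLZF, the product of *Zbtb16*, and make IL-4. IL-17 production in mice is better known from Vγ4 and Vγ6 cells.

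Both marker genes were counted in most members, which for *Trgv1* follows from the rule. *Trgv1* (Tcrg-V1, chromosome 13 of mm10/GRCm38, 19339989 to 19340454, plus strand, GENCODE M21) was counted in 28 of 28 tdTomato+ members, at 307 CPM (counts per 1000000 of the summed counts of the group), and in 659 of 660 tdTomato- members, at 523 CPM. In cells with another γ V segment it stood at 71.6 and 126 CPM, with counts in 42.7% and 51.0% of cells. *Trdc*, the δ constant gene (chromosome 14, 54142851 to 54148868, plus strand), was counted in 24 of 28 and in 582 of 660 members (85.7% and 88.2%), at 243 and 390 CPM. It does not set TRGV1 cells apart, with counts in 86.5% and 88.7% of cells with another γ V segment (302 and 383 CPM). *Trgv1* counts are no clean measure of the segment, because the second exons of *Trgv1* and *Trgv2* share 293 of 304 bases of the shorter exon and lie in one locus on opposite strands (*Trgv2*, 19336573 to 19337167, minus strand). Among tdTomato- cells called TRGV2, the 71 joined to TRGJ4 had 370 CPM of *Trgv1* (323 to 421), against 199.8 CPM in the 209 joined to TRGJ2. Counting those 71 cells as TRGV1 would raise the share in the tdTomato- library from 30.3% to 33.5%.

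Members of the tdTomato+ library carried endothelial transcripts. Their 20 endothelial marker genes together made 13537 CPM, against 446 CPM in tdTomato- members, and all 20 were detected in both. Per cell, the sum ran from 0 to 36291 CPM with a median of 8931 in tdTomato+ members, and from 0 to 22191 with a median of 0 in tdTomato- members. It reached 1000 CPM in 16 of 28 tdTomato+ members (57.1%) and in 16 of 660 tdTomato- members (2.42%). Cells with other γ V segments showed the same split, with 51 of 89 (57.3%) and 15 of 1519 (0.987%). The tdTomato+ members also held more UMIs, with a median of 16390 (5024 to 46832) against 7913.5 (629 to 98660). Gene counts between the sorts, and some gene and list values, are therefore also given for members under 1000 endothelial CPM. These are 12 tdTomato+ and 644 tdTomato- members, whose own endothelial sums were 250.5 and 92.8 CPM. Between-sort values printed without that limit are from all cells. Of the other lineages, the erythroid list stood at 2.09 and 1952 CPM (60.0% of the latter from 1 cell), the macrophage list at 48.1 and 408, the neutrophil and monocyte list at 8.36 and 375, the B cell list at 69.0 and 129, and the hepatocyte list at 16.7 and 4.54. The B cell gene *Cd79a* was at 0 in all 28 tdTomato+ members and counted in 8 of 660 tdTomato- members. The part of these transcripts in the differences below was not tested. The barcodes of 3 tdTomato- members also occur in the tdTomato+ library, out of 84 barcodes shared between the libraries.

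**Figure D1:**
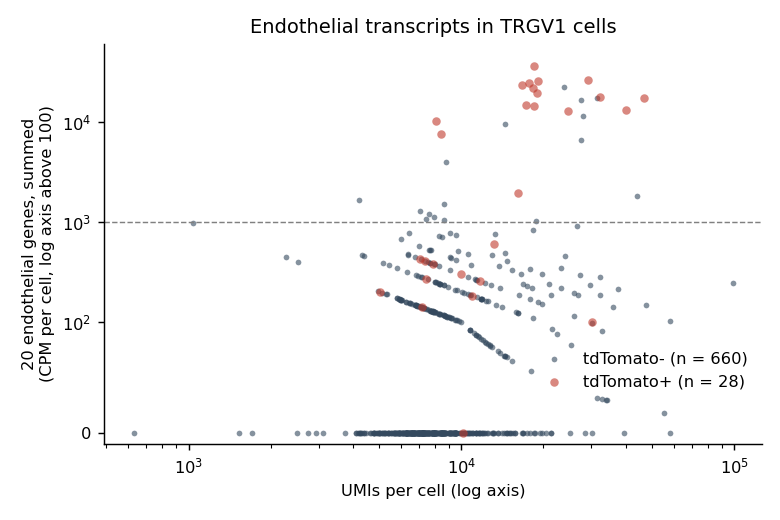
Summed level of 20 endothelial marker genes (CPM per cell, log axis above 100) against UMIs per cell (log axis), with 1 point per TRGV1 cell. The dashed line marks 1000 CPM: 16 of 28 tdTomato+ cells and 16 of 660 tdTomato- cells lie above it.

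TRGV1 was joined to the J and C segments of its own cassette in nearly every cell. All 28 tdTomato+ members used TRGJ4 (chromosome 13, 19342152 to 19342212) and TRGC4 (19344558 to 19352756), with a lower limit of 87.7%. In the tdTomato- library 653 of 660 used TRGJ4 (98.9%, 97.8 to 99.6), 6 used TRGJ2 and 1 used TRGJ1. TRGC4 was called in 650 of them (98.5%). The neighboring V segments differed in this: 899 of 903 tdTomato- TRGV4 cells used TRGJ1, and 209 of 285 TRGV2 cells used TRGJ2 (73.3%).

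Most γ CDR3s of TRGV1 cells had 1 of 2 lengths. They had a median of 39 bases in tdTomato+ (36 to 54; mean 40.9 ± 3.76, SD over 28 cells) and 42 bases in tdTomato- members (30 to 48; mean 41.0 ± 2.24, SD over 660 cells), and all lengths were multiples of 3. Lengths of 39 and 42 bases took up 13 and 11 of the 28 tdTomato+ members (46.4% and 39.3%) and 244 and 339 of the 660 tdTomato- members (37.0% and 51.4%). The tdTomato- library had a further 48 cells with 45 bases (7.27%). Its 339 cells with 42 bases include 197 with 1 same joint, junction A below, held by 0 of the 28 tdTomato+ members. TRGV4 and TRGV2 cells had medians of 42 bases in both libraries. The SD of TRGV1 lengths was above theirs in the tdTomato+ library (2.41 and 3.36 bases) and below theirs in the tdTomato- library (3.30 and 3.70 bases).

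Few sequences accounted for most of these joints. The next lines give first the end of TRGV1 and the start of TRGJ4, as read from germline mm10 sequence, and then the γ CDR3s held by at least 15 tdTomato- or at least 2 tdTomato+ members, because the sharing and the expression results below turn on them. Each is written 5′ to 3′ on the coding strand, and capitals mark bases that match neither germline end. These are called added bases below, whatever their source, which was not tested.
TRGV1 end: tgtgcagtctggataaa
TRGJ4 start: tcaggcacatcatgggtcaagatattt
Junction A: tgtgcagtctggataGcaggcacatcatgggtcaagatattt
Junction B: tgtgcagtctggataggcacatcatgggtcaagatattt
Junction C: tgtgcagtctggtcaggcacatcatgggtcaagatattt
Junction D: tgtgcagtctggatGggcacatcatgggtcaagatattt
Junction E: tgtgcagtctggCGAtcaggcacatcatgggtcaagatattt
Junction F: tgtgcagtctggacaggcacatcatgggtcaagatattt
Junction G: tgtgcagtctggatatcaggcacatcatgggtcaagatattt
Junction H: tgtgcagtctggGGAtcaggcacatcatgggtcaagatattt
Junction I: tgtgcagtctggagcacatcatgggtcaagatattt
Junction J: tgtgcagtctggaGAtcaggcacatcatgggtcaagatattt
Junction K: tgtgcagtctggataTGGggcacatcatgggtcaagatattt

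Junction A kept 15 bases of the V end and 26 of the J start around 1 added base. It was the most frequent γ CDR3 of the tdTomato- library, in 197 of 660 members (29.8%, 26.4 to 33.5), and was seen in 0 of 28 tdTomato+ members, with an exact upper limit of 12.3% (3 cells would make 10.7%). Junctions B and C contain no added base. B was held by 87 tdTomato- (13.2%) and 2 tdTomato+ members (7.14%), and C by 79 (11.97%) and 6 (21.4%). C was the most frequent joint of the tdTomato+ library, with a wide interval of 8.30 to 41.0%. Junctions D to H were each held by 15 to 18 tdTomato- members and by 0 or 1 tdTomato+ member. Junctions I, J and K were held by 8, 7 and 1 tdTomato- members and by 2, 3 and 2 tdTomato+ members.

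**Figure D2:**
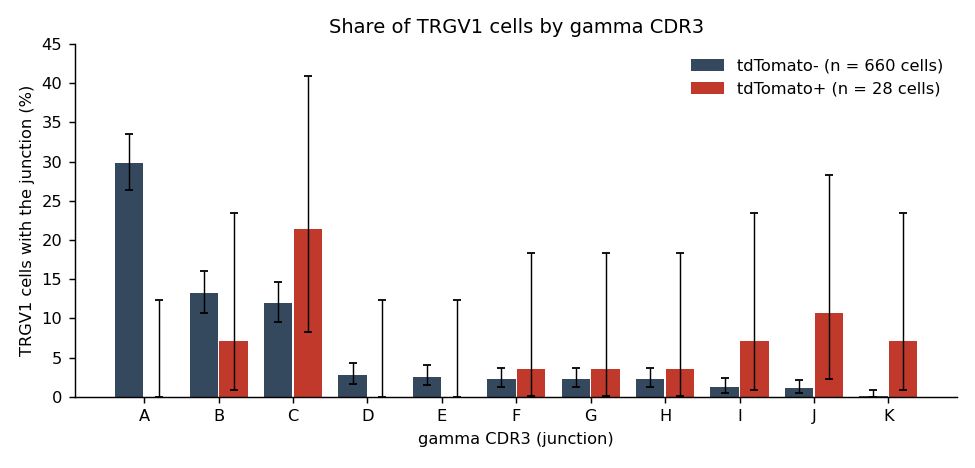
Share of TRGV1 cells (%) with each of the γ CDR3s printed above, by library, with exact 95% binomial intervals. Junction A stands at 29.8% of the tdTomato- and at 0 of the tdTomato+ cells, and junction C is the highest bar of the tdTomato+ library at 21.4%.

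Joints without any added base were common in both libraries. They were found in 12 of 28 tdTomato+ members (42.9%) and in 228 of 653 TRGJ4 members of the tdTomato- library (34.9%, 31.3 to 38.7), or in 228 of 456 without junction A. Counted over distinct joints, 5 of 18 and 10 of 137 (7.30%) had no added base. The largest number of added bases was 17 in a tdTomato+ and 9 in a tdTomato- member.

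The 28 tdTomato+ members held 18 distinct γ CDR3 nucleotide sequences, and the 660 tdTomato- members held 144. A sequence held by another cell of the same library was found in 15 tdTomato+ (53.6%, 33.9 to 72.5) and 555 tdTomato- members (84.1%, 81.1 to 86.8), a share that also grows with the number of cells sampled. Across the libraries, 24 of 28 tdTomato+ members (85.7%, 67.3 to 96.0) had a sequence present in the tdTomato- library, and 243 of 660 tdTomato- members (36.8%, 33.1 to 40.6) had one present in the tdTomato+ library. The overlap was 14 distinct sequences, which are 77.8% of the tdTomato+ list and 9.72% of the tdTomato- list. For TRGV4 the overlap was 9 sequences, 47.4% and 9.89% of the lists. TRGV2 sequences recurred less, with 56.5% of tdTomato- cells sharing one against 84.1% for TRGV1 and 94.0% for TRGV4. A total of 24 sequences, held by 453 tdTomato- TRGV1 cells, were also assembled with a TRGV2 call in 76 cells.

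A δ contig was found in a minority of members, 6 of 28 tdTomato+ (21.4%) and 88 of 660 tdTomato- (13.3%, 10.8 to 16.2). The contigs list 4 δ V segments, TRDV1, TRDV2-2, TRDV4 and TRDV5, and none of the V segments shared with the α locus, so Vδ6 chains do not appear in them. Among members with a δ contig, TRDV2-2 was the most frequent segment. It was found in 66 of the 88 tdTomato- members (95% interval, 64.6 to 83.6%) and 5 of the 6 tdTomato+ members. TRDV5 followed in 11 (12.5%), TRDV1 in 7 (7.95%) and TRDV4 in 5 (5.68%) tdTomato- members. The contigs do not show the usual δ partner of all members. In the gene expression counts, *Trdv2-2* was counted in 4.57% of junction A cells and 21.4% of the other tdTomato- members. *Trdv4* was counted in 5.58% and 34.3% of these groups, an order unlike that of the contigs. The Vδ6 genes *Trav15-1-dv6-1* and *Trav15-2-dv6-2* were counted in 95.9% and 1.02% of junction A cells and in 14.5% and 39.5% of the others. In tdTomato+ members *Trdv4* was counted in 10 of 28 cells and *Trdv2-2* in 7. The difference from the contigs was not tested. Pairing differed by γ segment: TRDV5 led among TRGV4 cells with 118 of 193 (61.1%), TRGV2 cells had TRDV2-2 in 40 of 76 (52.6%), and TRGV6 cells had TRDV4 in 64 of 65 (98.5%).

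Among the members with a δ contig, those with the same γ CDR3 mostly had different δ CDR3s. The 88 tdTomato- members held 76 distinct δ CDR3s and 83 distinct γδ pairs, of which 3 were found in more than 1 cell, and the 6 tdTomato+ members held 6 different pairs. The 17 junction B cells with a δ contig had 12 distinct δ CDR3s and the 15 junction C cells had 14. Junction A cells rarely had a δ contig, in 6 of 197, so δ sharing in that group cannot be read from the contigs.

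The gene expression counts show the δ segments that the contigs do not list, and here junction A stood apart. *Trav15-1-dv6-1*, a Vδ6 family segment (chromosome 14, 53559632 to 53560247, plus strand), was counted in 95.9% of the 197 junction A cells, at 467 CPM. It was counted in 13.8% of junction B, 8.86% of junction C and 16.2% of the other tdTomato- members, at 62.9, 31.6 and 86.1 CPM, with like median depths of 7849, 7874, 7751 and 7989 UMIs. In tdTomato+ members it stood at 115 CPM and was counted in 11 of 28 cells. *Trav15-2-dv6-2*, its family member at 53649404 to 53649994, ran the other way: 0.897 CPM in junction A, in 2 counts of 2229823, against 697, 513 and 599.6 CPM in junctions B, C and the others. *Trdv2-2* (53960944 to 53961602) was at 27.8 CPM in junction A, 345 in B, 285 in C and 146 in the others. Members of the Trav15 family are similar in sequence, and reads could be split between their copies.

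**Figure D3:**
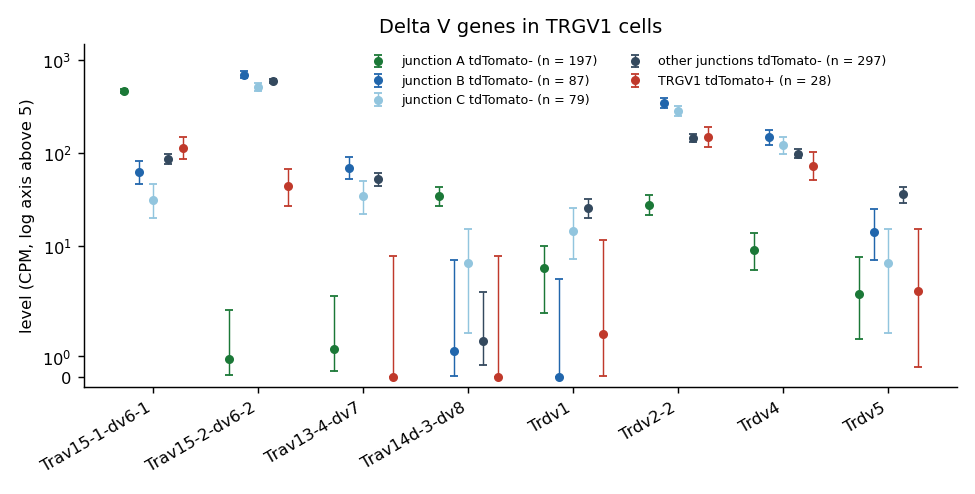
Level of 8 δ V genes (CPM of summed counts, log axis above 5) in tdTomato- TRGV1 cells by γ junction and in tdTomato+ TRGV1 cells, with exact 95% Poisson intervals. Junction A is high for Trav15-1-dv6-1 (467 CPM) and near 0 for Trav15-2-dv6-2 (0.897 CPM), which reaches 513 to 697 CPM in the other tdTomato- groups.

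Other receptor segments also separated junction A from the remaining 463 tdTomato- members. *Trbv12-2* and *Trbv13-2*, V segments of the β chain, were counted in 96.4% and 75.6% of junction A cells (688 and 177 CPM) and in 15.8% and 7.13% of the others (76.2 and 18.8 CPM). *Trac*, the α constant gene, was at 331 against 64.7 CPM, and 146 of 197 junction A cells had at least 2 *Trac* counts, against 63 of 463. Junction A cells also differed in sex-linked transcripts. Counts of Y-linked genes without *Xist* were found in 146 of 197 (74.1%) and *Xist* without Y-linked genes in 9, while the others split into 80 and 292 of 463. The tdTomato+ members split into 9 and 13 of 28, with 6 showing both. These 6 were among the 16 members with at least 1000 endothelial CPM, against 0 of the 12 below that limit. In tdTomato- members both were counted in 6 of 16 above the limit and 36 of 644 below it. The source of such mixed counts was not tested.

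Against cells with other γ V segments in the same tdTomato- library, TRGV1 cells had lower levels of most IL-17 list genes, and few other genes passed the limit. The 2 groups differed in sex-linked transcripts. Y-linked counts without *Xist* were found in 34.2% of these TRGV1 cells, in 17.3% of them without junction A and in 14.4% of the others. The part of sex was not tested. A gene was counted as higher or lower with at least 50 CPM in 1 group and a ratio of at least 2, and receptor segments and mitochondrial genes were left out. Of 3656 genes, 28 were lower (0.766%) and 3 higher (0.0821%). The IL-17 list had 6 of its 8 genes at that level lower and 0 higher, with a median log2 ratio of −3.39 over the 14 measured members and 0.01 over all genes. *Il17a* stood at 1.06 CPM in TRGV1 cells (0.426 to 2.18) and at 606 CPM in the others (595 to 618). By V segment it was 1086 CPM in TRGV6, 756 in TRGV4 and 315 in TRGV2 cells. *Il17f* was at 1.06 against 52.2 CPM. *Blk*, a Src family kinase of IL-17-producing γδ T cells, was at 3.18 against 122 CPM (log2 ratio −5.22). *Il1r1* and *Il23r*, receptors for the cytokines that drive IL-17 release, were at 3.03 against 43.5 and 6.06 against 48.0 CPM.

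Further lower genes lay outside the list. *Scart1* and *Scart2*, scavenger receptor genes of γδ T cells, were at 1.97 against 141 CPM and 7.27 against 118 CPM (log2 ratios −6.11 and −4.01), with 84.6% and 47.9% of the members' own counts from 1 cell each. *Ltb4r1*, a leukotriene B4 receptor, was at 4.85 against 50.7 CPM. *Ccr2*, a chemokine receptor, was at 41.2 against 112 CPM (log2 ratio −1.44). *Lgals1*, encoding galectin-1, was at 306 against 817 CPM (log2 ratio −1.42), and was the 1 gene past the limit among the 3 repair genes at 50 CPM. Against TRGV2 cells alone its log2 ratio was −0.15.

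The 3 higher genes were the hemoglobin genes *Hbb-bs*, *Hbb-bt* and *Hba-a1*, for which 1 cell gave over 50% of the members' counts. No list gene reached the 2-fold limit upward. The NK receptor list leaned up, with 13 of 16 measured genes above 0 and a median log2 ratio of 0.36. *Klrc1*, which encodes the inhibitory receptor NKG2A, was at 604 against 396 CPM (log2 ratio 0.61, 0.55 to 0.67), but at 366 CPM (−0.12) without the 197 cells of junction A described above. *Cd160* was at 616 against 435 CPM and *Ncr1*, encoding NKp46, at 197 against 149.8. The type 1 list had a median of 0.23 with 0 of 11 past the limit. In it, *Ifng* was at 801 against 578 CPM and *Tbx21*, the T-bet gene, at 260.0 against 210.1. Cytotoxicity genes were close, with *Gzmb* at 4472 against 4003 CPM and *Gzma* at 3163 against 4028. *Il4* was low throughout at 15.4 against 7.99 CPM, and *Zbtb16* stood at 35.7 against 52.1. Without junction A, 3 genes were higher (0.0809%) and 62 lower (1.67%), the IL-17 list still had 6 of 8 lower, and 7 of 9 cell cycle genes were lower too, with a median of −1.24 against −0.20 with junction A. *Mki67* was then at 95.1 against 244 CPM and *Gzmk*, encoding granzyme K, at 27.0 against 139.7.

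The same comparison within the tdTomato+ library rests on 28 against 89 cells. Of 4504 genes, 34 were higher (0.755%) and 44 lower (0.977%). *Il17a* was at 0 in the TRGV1 cells (0 to 7.71 CPM) and at 94.99 CPM in the others, where 1 cell gave 52.9% of the counts. It was the 1 lower gene of the 7 IL-17 list members at 50 CPM, and the list's median log2 ratio, with *Il17a* included, was −0.07. *Tmem176a*, lower among tdTomato- TRGV1 cells (24.7 against 100.5 CPM), was at 81.5 against 63.3 here, and *Il1r1* was at 81.5 against 85.4. The NK receptor list did not lean up here, with 6 of 15 measured genes above 0 and a median of −0.09, although *Klrc1* (253 against 129 CPM) and *Ncr1* (192 against 107) were among the 6. *Gzmb* was lower at 713 against 1659 CPM (log2 ratio −1.22, −1.39 to −1.05). *Ccl5*, a chemokine of effector T cells, was lower at 2275 against 4894.

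**Figure D4:**
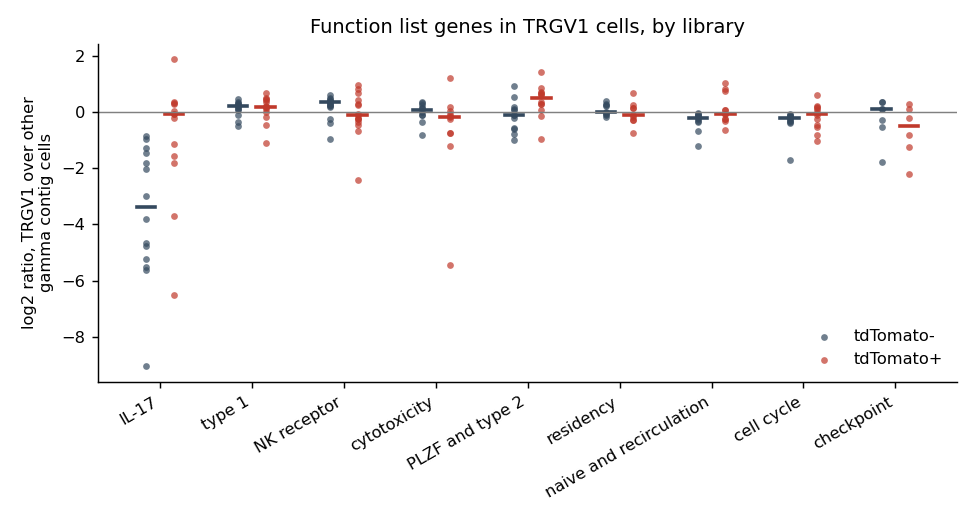
Log2 ratio of TRGV1 cells over cells with other γ V segments for each measured gene of 9 function lists, by library, with a bar at each list's median. The tdTomato- IL-17 genes all lie below 0 with a median of −3.39, while the medians of the other lists lie between −0.49 and 0.50.

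Within the tdTomato- TRGV1 cells, junction A cells were compared with the other 463, a grouping chosen after the junctions had been seen. Of 3784 genes, 117 were higher (3.09%) and 79 lower (2.09%) in junction A. Cell cycle genes were higher in 8 of the 9 list members at 50 CPM, with a median log2 ratio of 1.88 against −0.02 over all genes. *Mki67*, a marker of cycling cells, was at 395 against 95.1 CPM (log2 ratio 2.05), *Ube2c* of mitotic exit at 304 against 49.4 and *Top2a* at 409.9 against 100.8. Cells with at least 20 counts of these genes made up 14.2% of junction A (28 of 197) and 3.67% of the others (17 of 463), with 9.81% among tdTomato- cells of other V segments.

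Effector genes of junction A differed in direction. *Gzmk* (chromosome 13, 113171608 to 113225908, minus strand) was at 182 against 27.0 CPM (log2 ratio 2.75, 2.45 to 3.06), and *Casp1*, the protease that processes IL-1β and IL-18, at 86.1 against 28.8. *Klrc1* was at 1073 against 366 CPM (log2 ratio 1.55). *Gzmb* was at 4083 against 4670, *Ifng* at 1043 against 677 and *Ccl5* at 13700 against 9934, all under 2-fold. By junction, *Gzmk* was at 27.0 CPM in B, 15.8 in C and 29.998 in the others, so junction A held 405 of the 523 *Gzmk* counts of the tdTomato- members.

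Some NK receptor and PLZF-associated genes were lower in junction A. *Ncr1* (chromosome 7, 4337724 to 4345164, plus strand) was at 17.9 against 289 CPM (log2 ratio −3.99), *Klra5* (chromosome 6, 129898996 to 129917650, minus strand), a Ly49 family receptor gene, at 39.0 against 772 (−4.30) and *Klri1* at 2.24 against 105 (−5.41). The signaling adaptors *Tyrobp* (DAP12) and *Fcer1g* were at 175 against 1377 and 497 against 1421. Of the NK receptor list, 5 of 14 genes were lower and 1, *Klrc1*, higher, and the list's median log2 ratio of −0.07 lay close to the −0.02 of all genes. *Zbtb16* was at 3.14 against 52.4 CPM (log2 ratio −3.96) and the costimulatory receptor genes *Icos* and *Cd28* at 17.5 against 78.2 and 30.05 against 105, the 3 lower genes of the PLZF and type 2 list. *Il4* was at 2.24 against 22.2 CPM, with 53.9 in junction B and 9.21 in junction C. In the type 1 list *Il18r1*, *Il2rb* and *Xcl1* were lower, and in the residency list *Cxcr6*, a liver-homing receptor gene, and *Ahr*. The log2 ratio of *Cxcr6*, −1.11, was −0.81 among cells with fewer than 2 *Trac* counts and −0.94 at equal cell weight. The gene *Car2* (4.48 against 142 CPM) and *Lsamp* (33.6 against 420), picked after their values were seen, were among the lowest. Of the junction A cells, 10 had at least 1000 endothelial CPM (5.08%), against 6 of the others (1.30%).

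Among cells with Y-linked counts and no *Xist*, 146 of junction A and 80 others, *Gzmk*, *Klrc1* and *Mki67* kept log2 ratios of 1.82, 2.03 and 1.21, and *Klra5*, *Ncr1* and *Tyrobp* of −6.95, −6.16 and −4.46. Among cells with fewer than 2 *Trac* counts, 51 and 400, *Mki67* and *Ube2c* fell under the 2-fold limit at 0.93 and 0.92. The cause was not tested.

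**Figure D5:**
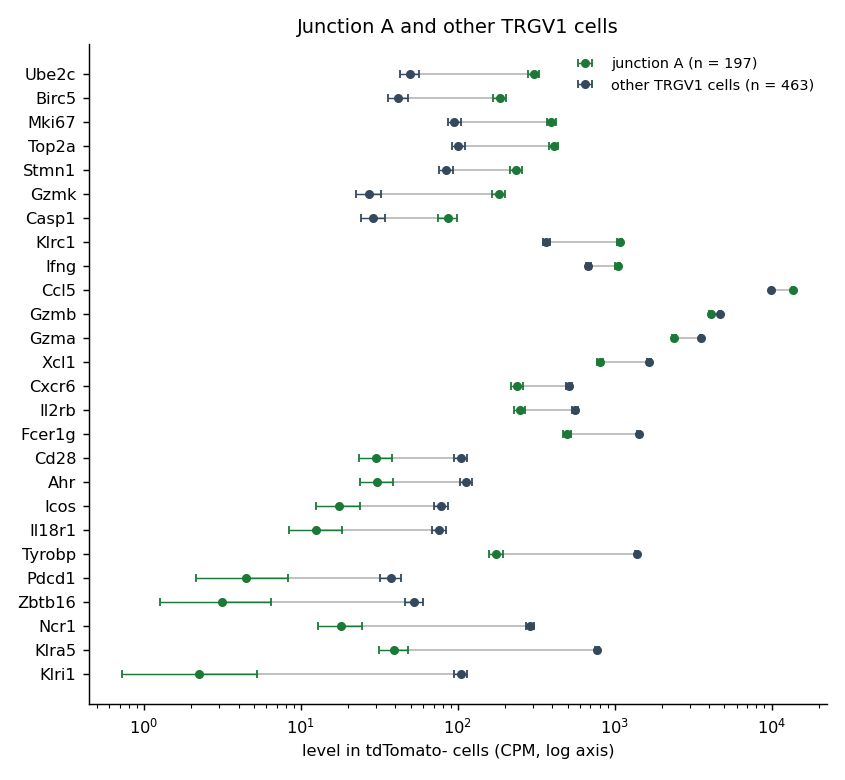
Level of 26 list genes (CPM, log axis) in tdTomato- TRGV1 cells with junction A and in the other tdTomato- TRGV1 cells, with exact 95% Poisson intervals and a line between the pair. Cell cycle genes and Gzmk lie to the right in junction A, and Ncr1, Klra5 and Zbtb16 to the left.

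Between the sorts, tdTomato+ TRGV1 cells had less of the cytotoxicity and NK receptor transcripts than tdTomato- TRGV1 cells. General T cell transcripts were lower as well. The 8 γδ T marker genes stood at 2929 against 5330 CPM, the 6 αβ T marker genes at 725 against 1432 and *Cd3e* at 696 against 1533. Under 1000 endothelial CPM the γδ T markers were at 4015 against 5434 CPM. The part of this drop in the values below was not tested. Of 4518 genes, 639 were higher (14.1%) and 166 lower (3.67%) in tdTomato+ members, and 345 (8.37%) and 274 (6.65%) of 4120 under 1000 endothelial CPM. The 10 genes with the largest ratios upward were led by *Gata4*, a transcription factor gene of sinusoidal endothelium, at 184 against 1.06 CPM, and those downward by *Hbb-bs* at 2.09 against 1510, with 60.2% of the latter counts from 1 cell.

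Cytotoxicity genes were lower in 5 of the 8 members at 50 CPM, in all cells and under 1000 endothelial CPM alike. *Gzmb* stood at 713 CPM in tdTomato+ and 4472 in tdTomato- members (log2 ratio −2.65, −2.81 to −2.50), and at 243 and 4582 with low endothelial transcripts, where 1 of the 12 cells gave 35.5% of the counts. *Gzma* was at 959.6 against 3163 CPM, with 39.2% of the former from 1 cell. *Prf1*, the perforin gene, was at 35.5 against 149, and *Gzmk* at 0 (0 to 7.71 CPM) against 79.2. Most of the tdTomato- *Gzmk* counts came from junction A cells, as given above, and 0 tdTomato+ members held that joint. *Ccl5* was at 2275 against 11206 CPM and at 2645 against 11269 with low endothelial transcripts.

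The NK receptor list had 8 of 14 genes lower and 0 higher, with a median log2 ratio of −1.24 against 0.18 over all genes, and 5 of 14 lower with a median of −0.67 among cells with low endothelial transcripts. *Tyrobp* was at 270 against 971 CPM, *Klre1* at 209 against 716 and *Cd244a* at 56.4 against 216. *Ncr1* was level over all cells, at 192 against 197 (log2 ratio −0.03, −0.36 to 0.27). The tdTomato- values pool junction A, low in *Ncr1* and *Tyrobp* and not seen in tdTomato+ members, with the other members. In those other members both genes, as given above, stood above the tdTomato+ level. Cells with other γ V segments had 4 of 14 NK receptor list genes lower (80 of 4353 genes in all, 1.84%) and a median of −0.78, with *Gzmb* at 1659 against 4003 CPM. *Ifng* was at 339 against 801 in TRGV1 cells and at 458 against 578 in the others. The checkpoint genes *Tigit* and *Lag3* were at 37.6 against 151 and 8.36 against 58.3 CPM in TRGV1 cells.

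Several receptor and transcription factor genes were higher in tdTomato+ members. *Rora* was at 268 against 95.9 CPM in all cells and at 274 against 92.3 with low endothelial transcripts, and *Maf* at 257 against 37.1 and 93.9 against 29.7. *Il18r1*, the IL-18 receptor gene, was at 119 against 54.5 and at 211 against 54.4, but its log2 ratio of 1.14 became 0.88 with fewer than 2 *Trac* counts, 0.66 without junction A and −0.50 with 1 cell per γ CDR3. *Il7r*, the IL-7 receptor gene, was under the limit in all cells at 159 against 86.9 CPM and above it at 329 against 87.4 with low endothelial transcripts. *Id3*, an inhibitor of E proteins, changed side, with 485 against 115 CPM in all cells and 54.8 against 110 with low endothelial transcripts. *Il1r1* was at 81.5 against 3.03 CPM, and in the 12 cells with low endothelial transcripts all of its counts came from 1 cell. Over all cells the IL-17 list had 5 of 6 genes higher, against 14.1% of all genes, namely *Rora*, *Maf*, *Il1r1*, *Tmem176a* and *Tmem176b*. Its cytokine gene *Il17a* was at 0 against 1.06 CPM. Under 1000 endothelial CPM, 6 of 6 were higher against 8.37% of all genes, but this rests on 12 tdTomato+ cells.

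By δ contig, 65 tdTomato- members with TRDV2-2 alone and 10 with TRDV5 alone could be set side by side. *Ncr1* was at 198 CPM (169 to 230) with TRDV2-2 and 50.7 CPM (20.4 to 104) with TRDV5, and *Gzma* at 2719 and 789. The TRDV5 value rests on 7 *Ncr1* counts and was 0 after thinning, and the TRDV2-2 value was 120 CPM with 1 cell per γ CDR3. *Gzmb* was at 3025 and 3278 and *Klra5* at 487 and 521. *Il17a* was at 0 in both.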

How the data were processed

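CD45+ liver cells were sequenced with 10x Genomics 5′ kits as 1 gene expression and 1 receptor library per sort. The gene expression files hold counts of UMIs per gene and barcode (33696 genes), deposited by the authors from Cell Ranger (10.0.0 in the matrix header, mm10 in the submitters' processing notes). The receptor files hold the V, J and C calls, CDR3 and UMI counts of each contig, deposited by the authors. The tdTomato+ and tdTomato- libraries held 203366009 and 156771260 UMIs in 17957 and 18444 barcodes, and 150 and 3018 contigs. Members had contigs of a median of 8 UMIs in both libraries (2 to 30 and 1 to 71).

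Counts were summed over the cells of each group and scaled to 1000000 (CPM). CPM were given exact Poisson, shares exact Clopper-Pearson and log2 ratios (0.5 counts added per group) exact conditional binomial 95% intervals. For 0 of n cells, the share that 3 cells would give is printed as the limit, and for a CPM of 0 the Poisson interval. With 1 library per sort no p-value was computed, and cells are not replicates. No doublet caller was run. CDR3s were compared base by base with the germline ends of TRGV1 and TRGJ4, from each end up to the first mismatch. Biopython 1.88 was used to read germline sequence and to align the second exons of *Trgv1* and *Trgv2*. The rest used scipy 1.17.1, pandas 2.3.3, numpy 2.4.6 and matplotlib 3.10.9 under python 3.11.15. The calculation was tested on simulated data. The members, the 13 function lists and the 8 marker lists were chosen with earlier results of these data known. Named genes were members of the function lists with at least 10 CPM in 1 group and the 10 with the largest ratio each way. Alternatives were stricter cell, contig and level limits, 1 cell per γ CDR3, thinning to 2000 UMIs, equal weight per cell, fewer than 2 *Trac* counts and under 1000 endothelial CPM. A few results on some genes are not reported here.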

Additional observations from a re-analysis of the deposited data

Results flagged for a closer look

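In 4 genes, with at least 50 CPM in 1 group and a ratio of at least 2 in both libraries, TRGV1 cells lay above cells with other γ V segments in the tdTomato- library and below them in the tdTomato+ library. Genes under these limits were not considered, and the difference between the libraries was not tested. *Hbb-bt* had a log2 ratio of 1.63 in tdTomato- and −9.65 in tdTomato+ cells, *Hbb-bs* of 1.14 and −10.20, and *Hba-a1* of 1.42 and −8.12. In the tdTomato+ cells with other γ V segments, 1 cell gave 99.5% of the *Hbb-bs* counts. *Trav15-2-dv6-2* had a log2 ratio of 1.02 in tdTomato- cells (399 against 197 CPM) and −1.16 in tdTomato+ cells (43.9 against 99.8 CPM), where 1 cell gave 76.2% of the members' counts.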

How the results depend on the processing

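Each result was recomputed under the alternatives, of which leaving out junction A, counting TRGV2-TRGJ4 cells as TRGV1 and all those for junction A were chosen after seeing the data. No paired analysis was possible because each sort has 1 library and no numbered replicates. Of 466 recomputed values, 297 kept their direction and size by the rules used. The γ CDR3 sharing of tdTomato- members was 79.8% with fewer than 2 *Trac* counts and 77.3% without junction A. TRGJ4 use was 95.1% with 1 cell per γ CDR3, and TRDV2-2 took 100% of tdTomato+ δ contigs under 1000 endothelial CPM and with 1 cell per CDR3. Counting TRGV2-TRGJ4 cells gave a TRGV1 share of 33.5%.

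For TRGV1 against other γ contig cells in the tdTomato- library, the genes higher numbered 0 with fewer than 2 *Trac* counts and under 1000 endothelial CPM, 21 with 1 cell per CDR3, 18 at 20 CPM, 2075 without a minimum, 16 at a ratio of 1.5, 5 against TRGV4 and 17 against TRGV2. The genes lower numbered 43 with fewer than 2 *Trac* counts, 62 without junction A, 16 with equal cell weight, 69 at 20 CPM, 1368 without a minimum, 67 at a ratio of 1.5 and 15 against TRGV2. In the tdTomato+ library, higher and lower genes numbered 103 and 74 with fewer than 2 *Trac* counts, 339 and 279 under 1000 endothelial CPM, 93 and 106 with 1 cell per CDR3, 880 and 554 after thinning, 183 and 186 at 20 CPM, 1856 and 1398 without a minimum, 262 and 188 at a ratio of 1.5, 69 and 90 against TRGV4, and 152 and 88 against TRGV2, with 69 higher at equal cell weight.

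Between the sorts they numbered 345 and 274 under 1000 endothelial CPM, 1336 and 409 after thinning, 1242 and 330 at 20 CPM, 6122 and 1148 without a minimum, and 1030 and 441 at a ratio of 1.5. For junction A, 124 genes were lower among cells with Y-linked counts and no *Xist*, and 71 and 70 were higher with fewer than 2 *Trac* counts and at equal cell weight. *Ncr1* with TRDV2-2 was 246 CPM with fewer than 2 *Trac* counts, 120 with 1 cell per CDR3 and 248 at equal weight, and with TRDV5 it was 0 after thinning. *Il18r1* between the sorts reversed to a log2 ratio of −0.50 with 1 cell per CDR3. The cause was not tested. The 28 tdTomato+ members limit every value from that library, and many of its genes rest on a few cells.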

Other observations

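The remaining function lists are given by their counts. Against other γ V segments in the tdTomato- library, the naive and recirculation, residency, receptor signaling, cell cycle, checkpoint and dissociation stress lists had 0 genes past the 2-fold limit in either direction, with median log2 ratios of −0.19, 0.03, −0.33, −0.20, 0.12 and 0.18, and the immaturity list had 1 measured gene. Between the sorts, 14.1% of all genes were higher and 3.67% lower in tdTomato+ TRGV1 cells, with a median log2 ratio of 0.18, and several of these lists lie near that. The naive and recirculation list had 3 of 10 genes higher in tdTomato+ TRGV1 cells (median 0.88), among them *Satb1* at 184 against 91.5 CPM, and 4 higher and 1 lower under 1000 endothelial CPM. The residency list had 1 higher and 2 lower of 8 (median −0.51), with *Rgs1* at 1020 against 3025 CPM. The dissociation stress list had 1 higher and 2 lower of 9 (median −0.69), with *Hspa1a* at 1478 against 3585 CPM. The cell cycle list had 0 higher and 1 lower of 8, the receptor signaling list 1 higher and 0 lower of 6, and the repair list 1 higher and 1 lower of 4. With low endothelial transcripts, the residency, dissociation stress, receptor signaling and repair lists had 0 genes higher. They had 2, 3, 0 and 1 lower, and the cell cycle list had 1 higher and 2 lower.

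Under 1000 endothelial CPM, *Ccl3* was at 0 in the 12 tdTomato+ members (0 to 28.9 CPM) and at 771 CPM in the 644 tdTomato- members, and *Cd8a* at 7.83 against 534 CPM. *Il22* was at 125 CPM in these 12 cells, all from 1 cell, and at 0 in the tdTomato- members.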
